A study of Danio rerio with 6 samples.

Results

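The digestive enzymes of the exocrine pancreas were examined in zebrafish larvae that lack *il7r*, the gene for the interleukin 7 receptor. The set holds 10 genes of known function, namely the trypsin genes *prss1*, *prss59.1* and *prss59.2*, the chymotrypsin gene *ctrb1*, the elastase genes *ela2* and *ela3l*, and the carboxypeptidase genes *cpa1*, *cpa4*, *cpa5* and *cpb1*. A gene was measured where a probe set named it alone, which was the case for 9 of the 10 genes, with 1 probe set each, out of 19260 genes measured in this way. *ctrb1* was not measured, since its current symbol is *ctrb.1* and the probe set that names it also names *ctrb.2*.

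The il7r-/- larvae came from a line made with CRISPR/Cas9, homozygous for a frameshift deletion in *il7r*, and they were set against wild-type (WT) larvae of the Tu strain. All larvae were collected at 4 days post fertilisation (dpf), and each of the 3 il7r-/- and 3 WT samples was a pool of whole larvae run on 1 Affymetrix Zebrafish Gene 1.0 ST array. The sources used here do not say whether the WT larvae were siblings of the mutants. Values are on the log2 scale, so that a difference of 1 is a factor of 2, and a change is the il7r-/- mean minus the WT mean.

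The acinar cells of the pancreas make these enzymes as inactive precursors, store them in granules and release them into the gut. Trypsin is activated in the gut and then activates the others. Trypsins, chymotrypsins and elastases are serine proteases that cut inside a protein chain, whereas carboxypeptidases hold a zinc ion and remove residues from the end of the chain. In the acinar cell their genes are driven by the transcription factors Ptf1a and Rbpjl, and Bhlha15 supports the secretory state.

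Some facts of the arrays touch the values that follow. Over the 75212 probe sets, which are not independent replicates, the il7r-/- arrays correlated with one another at 0.979 to 0.980 and WT replicates 1 and 2 at 0.977, whereas WT replicate 3 correlated with the other WT arrays at only 0.965. The *il7r* probe set was dim in every array, at no more than 1.71 in il7r-/- larvae and 1.80 in WT larvae, so it gives no check of the labels. In RNA from whole larvae, fewer acinar cells and less enzyme RNA per cell cannot be told apart. With 3 arrays against 3, an exact permutation test cannot give a p below 0.1.

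No digestive enzyme gene passed the test between genotypes. By limma's moderated test, with Benjamini-Hochberg adjustment across the 75212 probe sets and a required fold of more than 1.5, 0 of the 9 genes were called in either direction, against 0.234% of all genes, although at most 2 genes in all were called when any 1 array other than WT replicate 3 was left out. At an unadjusted limma p under 0.05 and no fold threshold there was 1 of 9, *cpa4*, against 12.3% of all genes. The groups did not overlap in 1 of the 9, again *cpa4*, against 22.3% of all genes. All 3 counts thus lay near the share in the genes at large. The median change of the 9 genes was -0.063, and that of all genes was -0.023.

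The trypsin genes overlapped widely between the genotypes. *prss1*, which lies apart from the other trypsin genes on the same chromosome, had values of 4.20, 4.31 and 4.76 in il7r-/- larvae and 4.41, 4.74 and 4.92 in WT larvae. Its change was -0.27 (standard error 0.20, adjusted p = 0.649). The highest il7r-/- array lay above WT replicates 1 and 2. *prss59.1* and *prss59.2* are direct neighbours among the protein-coding genes in the RefSeq annotation of the GRCz12tu assembly. They are close copies, so their probe sets may share signal and are read with that doubt. *prss59.1* had values of 5.33, 5.57 and 6.22 in il7r-/- larvae and 5.40, 6.06 and 6.44 in WT larvae, with a difference of -0.26 and a standard error of 0.33 (adjusted p = 0.802). Each group spanned more than the difference between them, by 0.89 in il7r-/- larvae and 1.04 in WT larvae. In *prss59.2* the values were 7.29, 7.44 and 7.88 in il7r-/- larvae and 7.26, 7.69 and 7.85 in WT larvae, so that the ranges nearly coincided and the change was -0.063 (standard error 0.22, adjusted p = 0.935).

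The elastase genes showed the same kind of overlap. *ela2* had values of 4.06, 4.26 and 4.66 in il7r-/- larvae and 4.36, 4.66 and 4.74 in WT larvae. The change was -0.26 (standard error 0.19, adjusted p = 0.639), and il7r-/- replicates 1 and 2 lay below all WT arrays while il7r-/- replicate 3 equalled WT replicate 2. *ela3l*, known also as elastase A, had values of 4.75, 4.62 and 5.13 in il7r-/- larvae and 4.86, 5.12 and 5.13 in WT larvae. Its change was -0.20 (standard error 0.17, adjusted p = 0.680), and the highest array had the same value in either genotype.

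The carboxypeptidase genes had changes of the opposite sign. *cpa4*, of the carboxypeptidase A family, had values of 4.08, 4.36 and 4.57 in il7r-/- larvae and 3.97, 3.77 and 3.99 in WT larvae. All il7r-/- arrays lay above all WT arrays, although the gap between il7r-/- replicate 1 and WT replicate 3 was narrow. The change was 0.43 (standard error 0.16, adjusted p = 0.358), a factor of 1.34 with a 95% interval of 1.04 to 1.74, and limma's unadjusted p was 0.0304. *cpb1*, a carboxypeptidase B gene whose product removes basic residues, had values of 4.96, 5.19 and 5.46 in il7r-/- larvae and 4.57, 4.77 and 5.50 in WT larvae. Its change was 0.26 (standard error 0.26, adjusted p = 0.753), and WT replicate 3 was the highest of the 6 arrays.

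*cpa5*, a carboxypeptidase A gene used as a marker of the zebrafish exocrine pancreas, and *cpa1* are direct neighbours in the same annotation. *cpa5* had values of 5.79, 5.87 and 6.57 in il7r-/- larvae and 6.19, 5.86 and 6.07 in WT larvae, with a difference of 0.037 and a standard error of 0.23 (adjusted p = 0.968). Its highest and its lowest array were both il7r-/-. *cpa1* had values of 2.41, 2.93 and 3.11 in il7r-/- larvae and 2.75, 2.41 and 2.80 in WT larvae, with a difference of 0.16 and a standard error of 0.21 (adjusted p = 0.808). This gene was dim, with a WT mean of 2.65 just above 2.465, the level under which probe sets were dropped in an alternative fit, and changes of dim probe sets are imprecise.

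**Figure D1:**
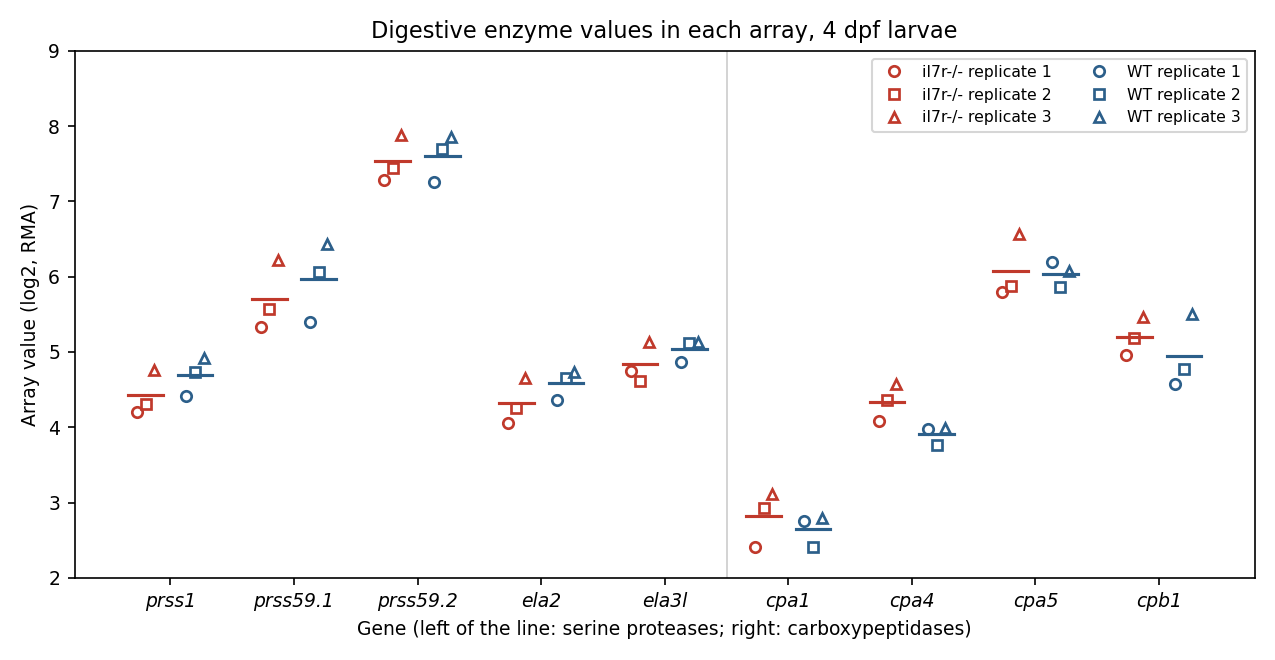
Array value (log2, RMA) of the 9 measured enzyme genes, with the il7r-/- arrays in red to the left of the WT arrays in blue; each point is 1 array, its shape gives the replicate and the bar is the group mean. The groups overlap in 8 of 9 genes, *cpa4* being the exception, and the triangle of replicate 3 is the highest of its group in 9 genes for il7r-/- and in 8 for WT.

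The intervals show what sizes of change these arrays leave possible. The 95% intervals of the changes contained 0 for 8 of the 9 genes, and they were not adjusted for the number of genes. For *prss59.2* the interval ran from -0.58 to 0.45, a factor of 0.669 to 1.37, and for *ela3l* from -0.60 to 0.20, a factor of 0.658 to 1.15. *prss59.1* was the least certain, with a factor of 0.485 to 1.44. The interval for *cpb1*, 0.771 to 1.85, reached furthest upward. These arrays therefore do not show that the enzymes were alike in the 2 genotypes, only that no difference passed the test.

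**Figure D2:**
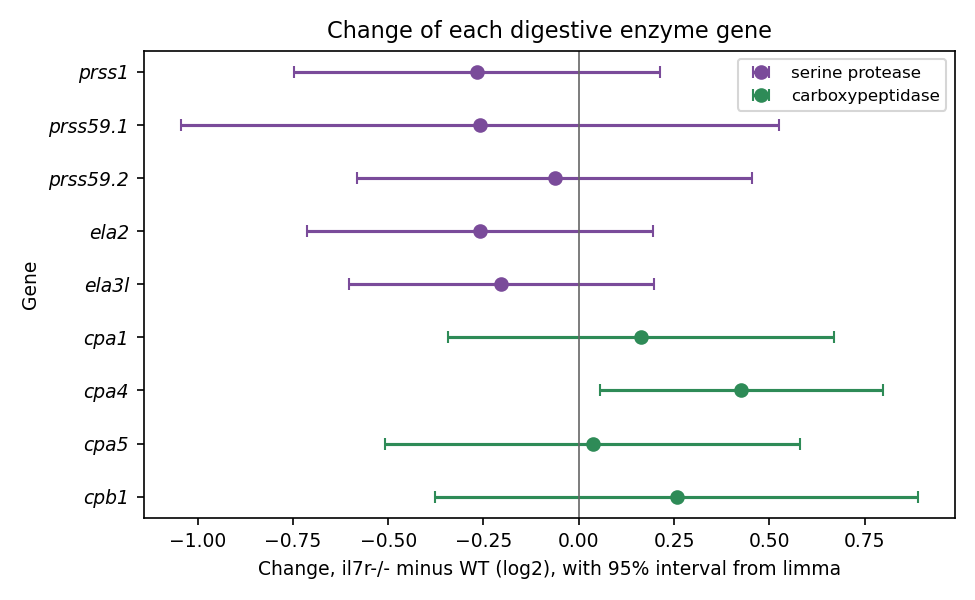
Change of each enzyme gene, il7r-/- minus WT (log2), with its 95% interval from limma; purple marks serine proteases and green marks carboxypeptidases. The 5 serine proteases lie below 0 and the 4 carboxypeptidases above it, and only the interval of *cpa4* leaves out 0.

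The sign of the change divided the enzymes by class. It was negative in all 5 serine protease genes (median -0.26) and positive in all 4 carboxypeptidase genes (median 0.21). The signs of *prss59.2* and *cpa5*, whose changes were closest to 0, were not stable when single arrays were left out. *prss59.2* had a change of 0.062 without WT replicate 3 and 0.060 without il7r-/- replicate 1, and *cpa5* had a change of -0.053 without WT replicate 2 and -0.21 without il7r-/- replicate 3. The mean over the serine proteases was 5.13, 5.24 and 5.73 in il7r-/- larvae and 5.26, 5.65 and 5.82 in WT larvae. Over the carboxypeptidases it was 4.31, 4.59 and 4.93 in il7r-/- larvae and 4.37, 4.20 and 4.59 in WT larvae. Each of these means overlapped between the genotypes. The difference between the classes within an array did not overlap, at 0.82, 0.65 and 0.80 in il7r-/- larvae and 0.89, 1.45 and 1.23 in WT larvae. The size of this difference depends on the probes and has no meaning of its own, so that only its change between arrays is read. It averaged 0.76 ± 0.09 in il7r-/- larvae and 1.19 ± 0.28 in WT larvae (SD, n = 3 each), a change of -0.43. The classes are those of enzymology, but they were compared because the signs had been seen, so no test was made. Subtracting genes seen to rise from genes seen to fall favours a separation in advance. Among single genes, the groups did not overlap in 22.3%. The carboxypeptidase mean also gives the dim *cpa1* equal weight. The gap between il7r-/- replicate 1 and WT replicate 1 was small. The change was -0.58 without WT replicate 1, -0.30 without WT replicate 2 and -0.41 without WT replicate 3. Among the WT arrays it thus rested most on replicate 2.

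**Figure D3:**
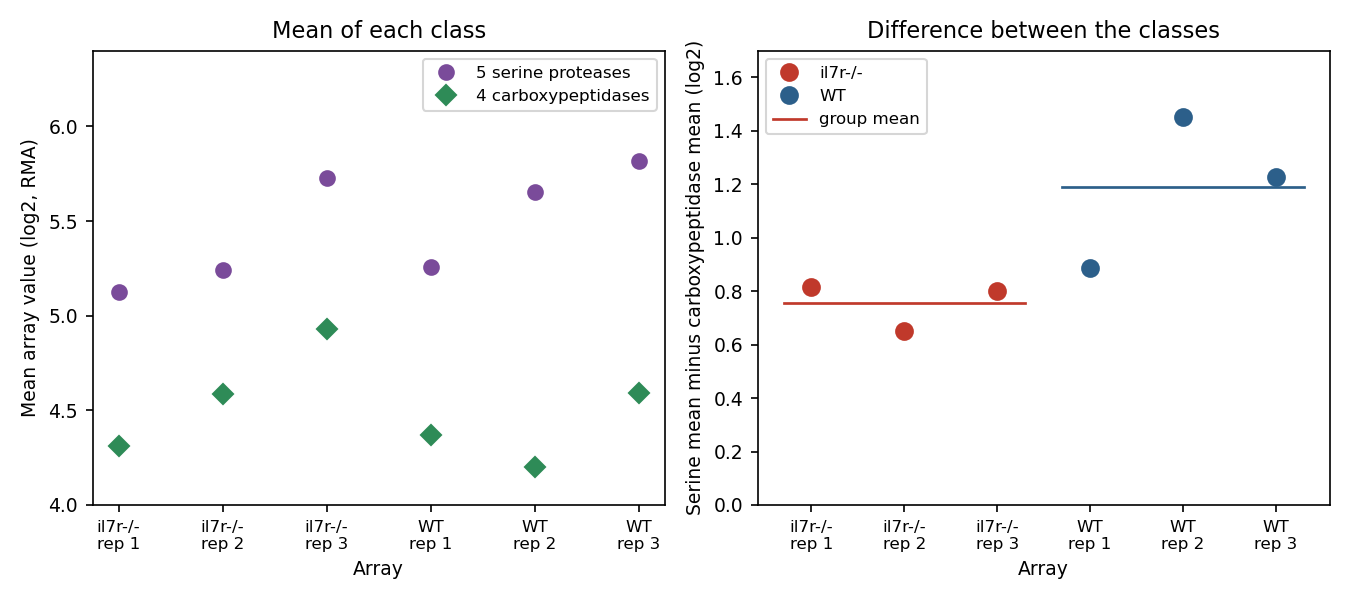
Left, the mean array value (log2) of the 5 serine proteases and of the 4 carboxypeptidases in each array; right, the difference between these means in each array, with lines at the group means of 0.76 for il7r-/- and 1.19 for WT. Each class overlaps between genotypes, whereas the difference is lower in every il7r-/- array than in any WT array. The classes were compared after the signs had been seen, which favours such a separation, so it is a description only.

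Other proteases of the same kinds did not all share these signs. The brighter serine proteases among them mostly had a change above 0, and the rest are dim and settle little. Among 11 other measured genes for chymotrypsins, elastases and related proteases, 7 had a change below 0 and 4 above it. Of all genes, 55.0% had a change below 0. Their mean differed by -0.035 between genotypes. It was 3.28 in il7r-/- larvae and 3.31 in WT larvae, against 5.37 and 5.58 for the serine proteases above. The genes below 0 other than *ctrb.3* had means of 2.85 or less over the 6 arrays, and the signs of such dim probe sets are imprecise. The 4 genes above 0 were brighter, at 4.70 in *ela2l*, 4.63 in *ctrl*, 4.18 in *cela1.4* and 3.96 in *cela1.2*. In the main set, *ela2* was at 4.33 in il7r-/- larvae and 4.59 in WT larvae. *cela1.4* had a change of 0.15 (adjusted p = 0.809) and *cela1.2* of 0.17 (adjusted p = 0.690). The brightest of the 11 was *ela2l*, a direct neighbour of *ela2*, with values of 4.91, 4.65 and 4.99 in il7r-/- larvae and 4.17, 4.65 and 4.85 in WT larvae. Its change was 0.29 (adjusted p = 0.617), while a second and dimmer probe set of the same gene had a change of -0.38 (adjusted p = 0.433), so its direction is unsettled. The chymotrypsin-like gene *ctrl* had values of 4.58, 4.72 and 4.90 in il7r-/- larvae and 4.49, 4.67 and 4.42 in WT larvae, a change of 0.21 (adjusted p = 0.593). *ctrb.3*, a chymotrypsinogen gene, had a change of -0.067 (adjusted p = 0.895). The list also held *cpb2*, a carboxypeptidase gene that need not report on the pancreas in whole larvae. It was dim, with values of 1.94, 1.48 and 1.91 in il7r-/- larvae and 1.90, 2.27 and 2.47 in WT larvae. Its change of -0.44 (adjusted p = 0.455) is therefore not set against those of the 4 carboxypeptidases above.

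The enzyme genes varied among arrays of 1 genotype. The median SD of the 9 genes was 0.31 in il7r-/- larvae and 0.21 in WT larvae, while over all genes it was 0.12 in il7r-/- larvae and 0.15 in WT larvae. In WT larvae the spread differed widely from gene to gene. *prss59.1* had an SD of 0.53, a range of 1.04 or a factor of 2.06, and *cpb1* had an SD of 0.49, a range of 0.93 or a factor of 1.91. Set beside the 500 genes next above and the 500 next below in level, these SDs lay above 98.4% and 98.3% of them. The WT arrays were much closer in *cpa4*, with an SD of 0.12 that lay above 30.9% of genes of like level, in *ela3l* (0.15, 51.9%) and in *cpa5* (0.17, 72.0%). In il7r-/- larvae the spread was more even, from 0.25 in *cpa4* to 0.46 in *prss59.1*, and all 9 SDs lay above at least 82.8% of genes of like level. *cpa5* stood at 99.9% there, with its 3 values at 5.79, 5.87 and 6.57.

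Much of this spread was shared by the enzyme genes. In il7r-/- larvae replicate 3 was the highest array for all 9 genes, and it lay 0.34 above the group mean on average, while replicate 1 was the lowest for 8 and *ela3l* was lowest in replicate 2. Among all genes, il7r-/- replicate 3 was the highest of its group in 31.5%. In WT larvae replicate 3 was the highest for 8 genes, by 0.22 over the group mean on average over the 9, and *cpa5* was highest in replicate 1. Among all genes, WT replicate 3 was the highest of its group in 34.0%. Replicate 3 was the highest in both groups for 8 of the 9 genes and for 11.1% of all genes. The methods describe 3 batches of larvae, and no source used here ties a batch to a replicate number.

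The WT arrays also divided the genes, in part by class. All 5 serine protease genes and *cpb1* were lowest in WT replicate 1, by 0.18 to 0.57 below the group mean. *cpa1*, *cpa4* and *cpa5* were instead lowest in WT replicate 2, by 0.14 to 0.24, and lay above the group mean in replicate 1. The same WT values make the difference between the classes 0.89 in WT replicate 1 and 1.45 in WT replicate 2. The division is therefore not separate from the class difference given above. No such division appeared in replicate 3 of either group, where all 9 genes lay above the group mean. In il7r-/- replicate 3 the deviations ran from 0.23 in *cpa4* to 0.51 in *prss59.1*, every one above the 90th percentile of all genes. In il7r-/- replicate 2 the 5 serine protease genes deviated by -0.21 to -0.067, *cpa5* by -0.21 and *cpb1* by -0.013. *cpa1* and *cpa4* lay above the group mean there, by 0.11 and 0.023.

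**Figure D4:**
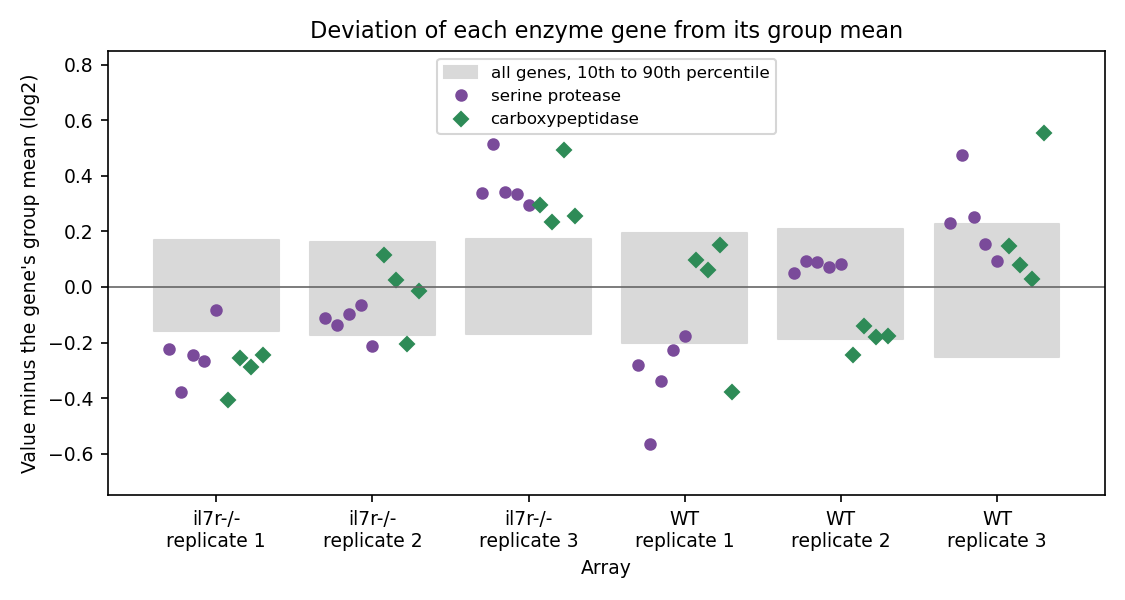
Value of each enzyme gene minus the mean of its group (log2) in the 6 arrays, with serine proteases as purple circles and carboxypeptidases as green diamonds; the grey box spans the 10th to 90th percentile of all genes in that array. All 9 genes lie above the box in il7r-/- replicate 3 and 8 lie below it in il7r-/- replicate 1, and in WT larvae 4 lie above it in replicate 3.

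Most genes listed as markers of the intestine were high in the same arrays. Of 16 measured genes of enterocytes, the absorptive cells of the gut, 11 were highest in replicate 3 among il7r-/- arrays and 12 were highest in replicate 3 among WT arrays. Their mean level was 4.53, 4.51 and 4.70 in il7r-/- larvae and 4.46, 4.43 and 5.03 in WT larvae. Replicate 3 thus stood out more in WT larvae, whereas the enzyme genes lay 0.34 above the group mean in il7r-/- replicate 3 and 0.22 in WT replicate 3. The lowest arrays also differed. In replicate 2, 10 enterocyte genes were lowest in il7r-/- larvae and 9 in WT larvae, against 36.4% and 28.1% of all genes. In replicate 1, 8 of the 9 enzyme genes were lowest in il7r-/- larvae and 6 in WT larvae. *vil1*, which encodes villin of the brush border, had values of 5.96, 5.88 and 6.37 in il7r-/- larvae and 6.02, 6.01 and 7.04 in WT larvae. *apoa1a*, an apolipoprotein gene, had values of 7.31, 7.71 and 7.81 in il7r-/- larvae and 6.87, 6.25 and 7.98 in WT larvae. The 14 hepatocyte genes had means of 3.72 to 3.75 in il7r-/- larvae and 3.94 to 4.05 in WT larvae. For 16 genes of the endocrine pancreas they were 4.35 to 4.38 in il7r-/- larvae and 4.30 to 4.37 in WT larvae. Neither set mean differed among arrays of 1 genotype by as much. By count, WT replicate 3 was the highest WT array for 8 hepatocyte and 6 endocrine genes, against 34.0% of all genes. For il7r-/- replicate 3 the counts were 5 and 6, against 31.5% of all genes. In RNA from whole larvae, the listed enterocyte genes, *apoa1a* included, need not report on the gut alone. The part of gut tissue in the spread of the enzyme genes was not tested.

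Other genes of the exocrine pancreas gave no call either. Of 32 further hydrolases listed, 21 were measured, among them *cpb2*, which need not be a gene of the pancreas. The median change was -0.067, with 0 called, and the groups did not overlap in 1, against 22.3% of all genes. Their replicate 3 arrays were the highest in both groups for 3 of 21, or 14.3%, against 11.1% of all genes. This set was dimmer, with array means of 2.91 to 3.07 against 4.76 to 5.37 for the main set. Changes of dim probe sets are imprecise, so the dim genes do not settle whether the pattern was shared, although the dim *cpa1* of the main set had it. Among the brighter serine protease genes of this list, *ela2l* had the pattern, whereas *ctrl*, *ctrb.3*, *cela1.2* and *cela1.4* did not. Of 24 regulators and secretory pathway genes of acinar cells, 19 were measured, with a median change of 0.087, 0 called and 4 without overlap. *ptf1a*, a factor gene of acinar cells, was dim, at 3.15, 3.29 and 2.95 in il7r-/- larvae and 3.13, 2.71 and 2.76 in WT larvae, a change of 0.26 (adjusted p = 0.573). *rbpjl* had a change of 0.19 (adjusted p = 0.718) and *bhlha15* of 0.18 (adjusted p = 0.646). None of these 3 factors was highest in replicate 3 of both groups. The brightest genes of this list, *hspa5*, an endoplasmic reticulum chaperone gene, and *ssr1*, a subunit gene of the translocon-associated complex, differed by -0.013 with an adjusted p of 0.983, and by -0.36 with an adjusted p of 0.357. In RNA from whole larvae, the genes of this list, *ptf1a* included, need not report on acinar cells alone.

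Neighbouring pancreatic tissues were also without calls. Over 16 endocrine genes the median change was 0.015, 0 were called and the groups did not overlap in 5. Among all genes, 0.234% were called and 22.3% did not overlap. Their brightest members were *pax6b*, an islet and eye transcription factor gene, with a change of -0.41 (adjusted p = 0.287), and the prohormone convertase gene *pcsk2*, with -0.13 (adjusted p = 0.672). Over 6 measured duct and progenitor genes the median was 0.033 with 0 called and 2 without overlap, and the brightest, *onecut1* and *prox1a*, differed by 0.21 with an adjusted p of 0.571, and by -0.47 with an adjusted p of 0.376. *pax6b*, *pcsk2*, *onecut1* and *prox1a* are also expressed in the nervous system or the eye, so in whole larvae they do not report on the pancreas alone.

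Among 9622 other genes above the median level, those most like the mean of the 9 enzyme genes over the 6 arrays were *cldn15a* (Pearson's r of 0.984), *tagln* (0.983), *abca1b* (0.969), *slc25a1b* (0.966) and *ccdc137* (0.959). The next were *pex5lb*, *RBM6*, *sash1b*, *lgals2b* and *ganaba*, at 0.940 to 0.949. *cldn15a*, a tight junction gene, had values of 4.49, 4.73 and 5.09 in il7r-/- larvae and 4.65, 4.79 and 5.11 in WT larvae. *lgals2b*, a galectin gene, varied most of the 10, at 6.19, 6.39 and 7.01 in il7r-/- larvae and 6.55, 6.62 and 6.83 in WT larvae. The other genes spanned 0.15 to 0.42 over the arrays, apart from *cldn15a* at 0.62. These likenesses rest on 6 arrays of 2 groups and were picked as the highest of many, so they are a description only. Within the set, the correlation of each gene with the mean of the other 8 ran from 0.30 in *cpa4* to 0.92 in *prss59.2*.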

How the data were processed

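The authors ran total RNA from pooled larvae on Affymetrix arrays and used Expression Console. RMA, named in the submitters' processing notes, gave background-corrected, normalized values per probe set. The deposited values were read as log2 from their range, since the base is not stated. The build and annotation are not given in the sources used here. The table holds 75212 probe sets, and 20806 name 1 gene alone. A gene with several was represented by the one with the highest mean. The values were fitted in R 4.3.3 with limma 3.58.1 (lmFit and eBayes, two-sided), with genotype as the only factor, and p-values were adjusted over all probe sets. The number of arrays limits the precision. The methods call the replicates batches of larvae, and the p-values measure the spread between these samples. The fit was also run on values simulated under limma's own assumptions, which checks the code only.

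The enzyme genes, the 6 gene lists and the rules were chosen with earlier results of these data known. The genes named are the members, the 2 brightest of each list (none was called), *ptf1a*, *rbpjl*, *bhlha15* and the 10 genes of most like pattern. *ctrb.3*, *cpb2*, *cela1.2* and *cela1.4* were named after their values were seen. Alternatives were array weights, a robust prior that follows intensity, Student's t-test (raw and adjusted), quantile normalization, median centring, other fold thresholds and unadjusted p. Further ones were dropping the dimmest probe sets, testing those that name 1 gene alone, averaging probe sets by gene, a block for replicate number, and leaving out each array. The methods name one-way ANOVA for the arrays and Student's t-test for comparisons of 2 groups. Gene order and symbols came from RefSeq (GRCz12tu). The order is that of the gene starts of protein-coding genes, so direct neighbours are neighbours among these.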

Additional observations from a re-analysis of the deposited data

How the results depend on the processing

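No enzyme gene was called under any of the 19 alternatives, and the lowest adjusted p over them was 0.200, for *cpa4* with testing of probe sets that name 1 gene alone. The median change of the enzyme genes ran from -0.24 to 0.060 when single arrays were left out. That of *prss59.2* ran from -0.24 to 0.062 and that of *cpa5* from -0.21 to 0.18, and these were the 2 genes whose sign turned, *prss59.2* without WT replicate 3 (0.062) or il7r-/- replicate 1 (0.060) and *cpa5* without WT replicate 2 (-0.053) or il7r-/- replicate 3 (-0.21). With single arrays left out, *prss59.1* moved between -0.54 and -0.023 and *cpb1* between 0.068 and 0.53. The change in the difference between serine proteases and carboxypeptidases ran from -0.58 to -0.30 with single arrays left out, a recomputation added after seeing the data, and the median WT SD ran from 0.15 to 0.27 with single WT arrays left out. With an unadjusted p, also chosen after seeing the data, 1 gene of the lists was called, *c3a.1*. Same-numbered arrays deviated together weakly at most (Pearson's correlation over genes of 0.047, 0.0047 and 0.081). Differently numbered arrays had correlations of -0.067 to 0.033. The numbers are thus not known to pair the samples. With the number as a replicate block the median change was -0.063, with 0 enzyme genes called, and the count of called probe sets was 1 in place of 224. Over the whole series 10 genes were called higher and 35 lower. These counts were 15 and 91 with a robust intensity trend, 13 and 67 with array weights, and 13 and 74 without the dimmest probe sets. With probe sets that name 1 gene alone they were 38 and 175. They were 120 and 453 with an unadjusted p, and 94 and 381 by Student's t-test before adjustment. They were 0 and 0 by that test after adjustment and with the block. With 1 array left out they were 0 and 0 without each il7r-/- replicate in turn, 1 and 0 without WT replicate 1, 0 and 2 without WT replicate 2, and 11 and 50 without WT replicate 3. No enzyme gene was among them.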

Other observations

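Of the marker lists set beside the enzyme genes, the hepatocyte list lay furthest from 0. Of 14 measured genes, 13 were negative in sign, against 55.0% of all genes. The median change was -0.22 beside -0.023 for all genes, and 0 were called, against 0.234% of all genes. In 7 of the 14 all il7r-/- arrays lay below all WT arrays, a larger share than the 2588 of all 19260 genes. Most of the list was dim, with array means of 3.72 to 4.05, and changes of dim probe sets are imprecise. *c3a.1*, a complement C3 gene, had values of 3.86, 4.28 and 3.93 in il7r-/- larvae and 4.38, 4.49 and 4.99 in WT larvae, a change of -0.60 (adjusted p = 0.327), and *fga*, a fibrinogen chain gene, had 4.49, 4.48 and 4.60 in il7r-/- larvae and 4.89, 4.63 and 5.20 in WT larvae, a change of -0.38 (adjusted p = 0.422). *rbp4*, the brightest of the list, had 7.72, 7.54 and 7.59 in il7r-/- larvae and 8.13, 8.11 and 7.12 in WT larvae, so that WT replicate 3 lay below every other array while the remaining WT arrays lay above them. *c3a.1* was chosen after its values were seen.

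Transcription factor genes of the pancreas and endoderm had changes of either sign, and those given here were named after their values were seen. *pdx1*, which marks the pancreatic bud and the islet, had values of 4.50, 4.55 and 4.56 in il7r-/- larvae and 3.86, 4.18 and 4.15 in WT larvae, a change of 0.47 (adjusted p = 0.232). *gata4*, an endoderm and heart factor gene, had values of 4.98, 5.12 and 4.93 in il7r-/- larvae and 4.38, 4.62 and 4.71 in WT larvae, a change of 0.44 (adjusted p = 0.272). The groups did not overlap in either gene, as in 22.3% of all genes, and neither passed the test. Below 0 were *prox1a* at -0.47 (adjusted p = 0.376), *pax6b* at -0.41 (adjusted p = 0.287) and *neurod1*, a factor gene of islets and neurons, at -0.32 (adjusted p = 0.559).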
